A study of Mus musculus with 4 samples.

Results

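The genes described are 6 that are known for their expression in alveolar type 2 cells of the lung: Sftpa1, Sftpb, Sftpc, Sftpd, Cxcl15 and Lamp3. They were chosen by name, all 6 were found among the 27998 genes listed, and they were followed in 4 droplet libraries of single cells. The mice were FvB animals with the MMTV-HER2/Neu transgene, which a mammary tumor virus promoter expresses chiefly in mammary epithelium. All 4 groups carried it, so there was no transgene-free control. The early lung and early lesion (mammary gland) libraries came from mice of 14 to 18 weeks without a palpable tumor. The late lung and primary tumor libraries came from mice over 20 weeks with tumors. Cells were sorted as CD45- and HER2+, and the labels call the cells of all 4 groups breast cancer cells. Each group had 1 library, and whether it held cells of 1 mouse or of several is not given in the sources used here. There was therefore no spread between mice to test against. Every interval below is an exact 95% interval and covers counting error only.

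Alveolar type 2 cells are cuboidal cells of the air sacs that make surfactant, the film of lipid and protein that keeps the air sacs from collapsing. Sftpb and Sftpc encode the small hydrophobic surfactant proteins B and C that help spread the lipid film, and Sftpc is the most specific type 2 marker of the set. Sftpa1 and Sftpd encode the large collectins A and D, which bind microbes. Cxcl15 (lungkine) encodes a chemokine of lung epithelium, and Lamp3 a membrane protein of the lamellar bodies that store surfactant. Sftpa1, Sftpb, Sftpd and Cxcl15 are also known in airway club cells, whose main secreted product is Scgb1a1. Ager is a marker of the flat alveolar type 1 cells that line most of the air sac, and H2-Ab1 encodes a chain of MHC class II, which type 2 cells of the mouse also carry.

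In the GENCODE M21 annotation, 1-based on mm10, Sftpa1 lies at chr14:41131782-41136452 on the plus strand. Sftpd lies close by at chr14:41172214-41185149 and Sftpc farther along the same chromosome at chr14:70520949-70524081, both on the minus strand. Sftpb lies at chr6:72304610-72314371 and Cxcl15 at chr5:90794534-90803067, both on the plus strand, and Lamp3 at chr16:19653378-19706375 on the minus strand. All 6 are protein coding, and the only overlapping annotated gene is Gm24322, on the strand opposite to Cxcl15 and not listed in the files. Promoters of Sftpa1, Sftpb and Cxcl15 are shown because UMIs of these 3 genes were found in Scgb1a1-high cells of both lung libraries, as described below. RefSeq entries on GRCm38.p6 were matched for 4 of the 6 genes (Sftpa1, Sftpb, Cxcl15 and Lamp3), and not for Sftpc and Sftpd. Each sequence is the 250 bases before the RefSeq gene start, 5′ to 3′ on the strand of the gene. Capitals mark CTCAAG, the core sequence bound by NKX2-1, a transcription factor of lung epithelium, and TATAAA, the TATA box.
Sftpa1: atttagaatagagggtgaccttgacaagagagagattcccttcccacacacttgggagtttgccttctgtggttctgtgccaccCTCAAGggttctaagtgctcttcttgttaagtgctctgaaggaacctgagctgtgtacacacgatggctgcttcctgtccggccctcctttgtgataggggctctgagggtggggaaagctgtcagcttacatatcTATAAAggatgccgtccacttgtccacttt
Sftpb: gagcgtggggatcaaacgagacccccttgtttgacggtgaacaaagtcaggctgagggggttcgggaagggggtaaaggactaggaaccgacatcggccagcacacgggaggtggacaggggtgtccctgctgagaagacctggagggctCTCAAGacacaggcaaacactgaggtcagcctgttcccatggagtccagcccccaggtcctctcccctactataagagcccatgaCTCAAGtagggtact
Cxcl15: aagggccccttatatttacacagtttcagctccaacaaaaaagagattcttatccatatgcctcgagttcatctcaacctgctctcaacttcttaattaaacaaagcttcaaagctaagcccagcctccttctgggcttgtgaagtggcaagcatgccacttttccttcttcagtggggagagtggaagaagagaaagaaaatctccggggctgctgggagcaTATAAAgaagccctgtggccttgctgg
These windows span chr14:41131538-41131787, chr6:72304360-72304609 and chr5:90794284-90794533, all on the plus strand. CTCAAG began 166 bases before the start of Sftpa1, and 100 and 15 bases before that of Sftpb. TATAAA began 30 bases before the start of Sftpa1 and 27 bases before that of Cxcl15. Neither was found in the Lamp3 window. Both strands were searched, and the motifs share no overlapping match here. Of 32851 promoter windows of the same length, 13.3% held CTCAAG and 12.4% held TATAAA, so these matches are a description and not evidence of binding.

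The lung libraries were shallow. They held 743765 UMIs (tags on single captured RNA molecules) at the early and 1070236 at the late stage, whereas the early lesion held 6366768 and the primary tumor 3403140. Barcodes with at least 500 UMIs, at least 250 genes and a mitochondrial share of at most 20% were taken as cells, which gave 185, 210, 1318 and 434 cells in that order. Their median depths were 772, 811, 2360 and 1657.5 UMIs. No cell barcode was shared between any pair of libraries. In the late lung, 8 cells over 10000 UMIs held 42.2% of all UMIs of cells. Doublets were not removed. When each lung cell was assigned to the marker list that stood out most over the free RNA, 61 early and 93 late cells were led by alveolar type 1 genes. Endothelial genes led in 39 and 32 cells, airway club genes in 9 and 15, and type 2 genes other than the 6 described in 3 and 3. Mammary luminal and milk genes, which the label of the cells would call for, led in 0 of the 185 cells at the early stage and 5 of the 210 at the late stage.

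Surfactant transcripts were abundant in both lung libraries, inside and outside of cells. Free RNA was measured in barcodes of 1 to 50 UMIs, which are too shallow to be cells. In the early lung, Sftpc had 90 UMIs in cells, or 442 CPM (the customary unit of counts scaled by the total of the sum, 355 to 543), and 1125 CPM (993 to 1269) in free RNA. In the late lung it had 583 UMIs in cells, or 1415 CPM (1302 to 1535), and 1208 CPM (1090.1 to 1335) in free RNA. Early cells thus held less Sftpc than the free RNA around them, by a log2 ratio of -1.34 (-1.71 to -0.997), and late cells about as much, at 0.23 (0.04 to 0.42). Free RNA held the gene at like levels in both lungs. Within the barcodes short of a cell, the early level was 1132 CPM at 1 to 20 UMIs, 1093 at 21 to 50, 706 at 51 to 100 and 207 above that, and the late levels were 1201, 1246, 962 and 429.5 CPM. The deeper of these barcodes thus held less Sftpc than the shallow ones in both lungs.

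The other surfactant proteins were less abundant. Sftpa1, of collectin A, had 270.04 CPM in early and 177 CPM in late lung cells, with 222 and 204 CPM in free RNA. Sftpb had 133 and 158 CPM in cells and 137 and 163 CPM in free RNA. For both genes the levels in cells and in free RNA had overlapping intervals in both lungs. Sftpd, of collectin D, had 29.5 CPM from 6 UMIs and 26.7 CPM from 11 UMIs in cells. The chemokine gene Cxcl15 had 103 CPM in early cells and 107 CPM in late cells, but its free RNA differed, with 34.2 and 122 CPM. Lamp3 was near the limit of detection, with 2 UMIs in early and 3 in late lung cells. These comparisons of levels between genes carry no correction for length, since 3′ tags count molecules and not fragments.

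**Figure D1:**
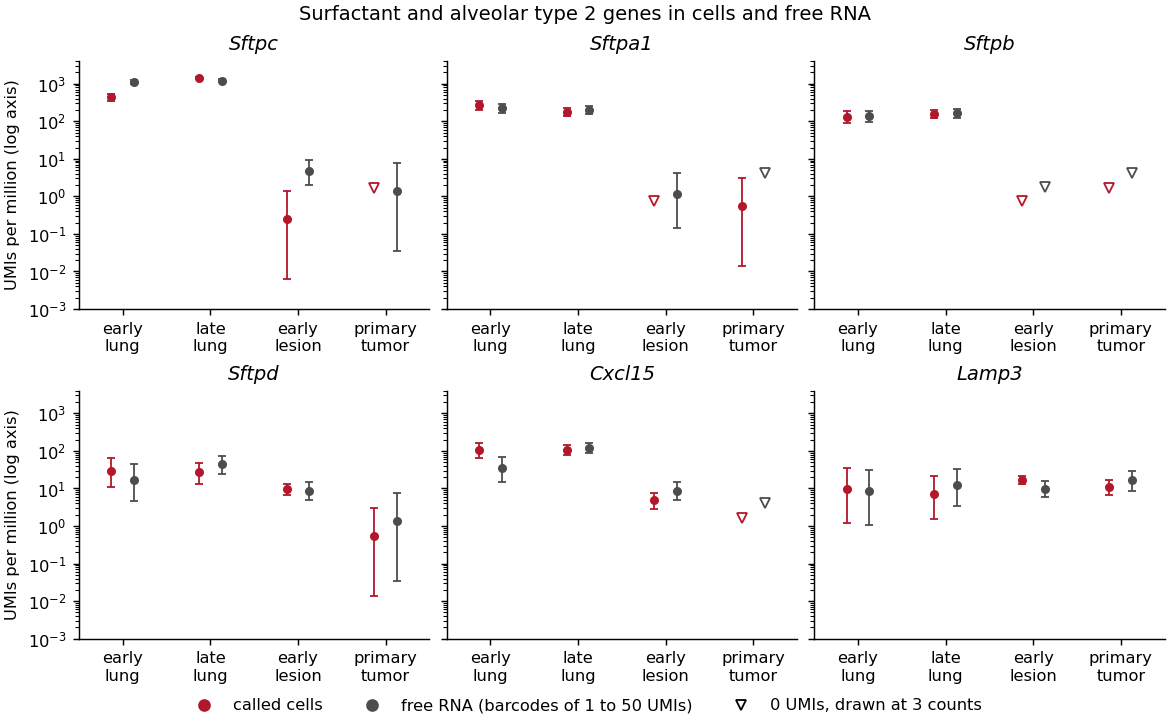
CPM of each gene (log axis) in called cells (red) and in free RNA (grey) of the 4 libraries, with exact 95% counting intervals. Open triangles stand for 0 UMIs and are drawn at the level that 3 counts would give. Sftpc, Sftpa1 and Sftpb are high in both compartments of the lung libraries and at or near 0 in the mammary libraries, whereas Lamp3 lies between 7.28 and 16.6 CPM in the cells of all 4.

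A call of higher or lower needed a ratio of 2-fold or more and an interval without a ratio of 1, over genes with at least 20 counts in both sums together. Of the 4 members with enough counts in the early lung, Cxcl15 was called higher in cells than in free RNA (log2 ratio 1.54, 0.36 to 2.98) and Sftpc lower. Over all 3293 genes tested there, 6.83% were called higher and 6.74% lower. In the late lung, 5 members had enough counts and none was called in either direction, against 9.96% of 5108 genes called higher and 5.97% lower. These sums over cells hide a very uneven spread, which the following values per cell show.

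Sftpc was held by very few cells. A cell was counted as surfactant-high when it had at least 5 UMIs of the 6 genes and their share of its UMIs was at least 10 times that of the free RNA. That was met by 1 of 185 early lung cells (0.541%, 0.0137% to 2.97%) and 4 of 210 late lung cells (1.90%, 0.521% to 4.80%). The early cell had 71 Sftpc UMIs, which is 78.9% of all Sftpc in early lung cells. The 4 late cells had 211, 124, 110 and 81 Sftpc UMIs, and together 526 of 583 (90.2%). In the lesion 1 of 1318 cells met the thresholds, through 8 UMIs of Cxcl15, and in the tumor 0 of 434, which allows a share of up to 0.691% (3 cells). At least 1 UMI of the 6 genes was found in 28 early and 38 late cells, so 84.9% and 81.9% of cells had none. The range is set by a threshold and is not a cell type: the late cell nearest below it had 16 Sftpc UMIs at 7.72 times the free RNA share, and the lowest above it stood at 19.9 times.

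The 5 surfactant-high lung cells fell into 2 kinds by their Scgb1a1. A first kind had little of it. The early cell (705 UMIs) held 8 Sftpa1, 5 Sftpb and 4 Cxcl15 UMIs beside its 71 of Sftpc, and 1 UMI of Scgb1a1, and the members made up 12.5% of its RNA. The richest late cell (950 UMIs) held 35 Sftpa1, 7 Sftpb, 7 Sftpd and 5 Cxcl15 UMIs with 7 of Scgb1a1, and its member share was 27.9%. A further late cell (1260 UMIs) held 8 Sftpa1, 2 Sftpb and 1 Cxcl15 UMIs with 1 of Scgb1a1. These 3 cells also carried other type 2 transcripts. They had 12, 21 and 11 UMIs of Lyz2 and 9, 22 and 24 of Lyz1, the lysozymes, and the first and second of them had 3 and 5 UMIs of Napsa, a protease that processes surfactant protein B. Their share of the type 2 list other than the members was 4.11%, 6.32% and 3.02%. Not all type 2 genes were found: Slc34a2 had 0, 2 and 0 UMIs, and Nkx2-1 and Lamp3 had 0 in each of the 3. Hopx, of the alveolar type 1 list, had 6, 0 and 1 UMIs.

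The second kind, found in the late lung, held Sftpc together with Scgb1a1 at club cell levels. In a cell of 1164 UMIs, 124 were Sftpc and 576 were Scgb1a1. In a cell of 2548 UMIs, 81 were Sftpc and 1524 were Scgb1a1. This pair had 0 UMIs of Lyz2 and Napsa and 1 of Lyz1, and its share of the other type 2 list was 0.0859% and 0.235%. The larger cell held 26 UMIs of Hp, which encodes haptoglobin, and 27 of Scgb3a2, a further club cell secretoglobin. The median depth was 811 UMIs over all late cells and 2251 over the late cells high in Scgb1a1 alone. Whether the pair are doublets was not tested. The free RNA at their depths would give 2.04 and 4.47 UMIs of the 6 genes, against 134 and 89 found. No UMI of macrophage, B cell, fibroblast or milk genes was found in any of the 5 cells.

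**Figure D2:**
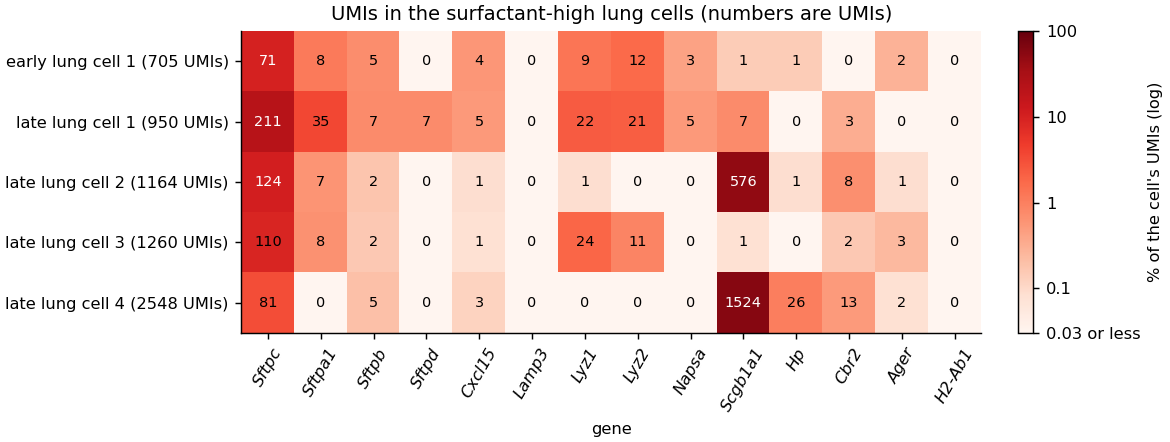
UMIs of the 6 members and of 8 further genes in each surfactant-high lung cell, with the cell's total in the row label. Numbers are UMIs and the colour is the percentage of the cell's UMIs on a log scale. Cells 2 and 4 of the late lung combine Sftpc with 576 and 1524 UMIs of Scgb1a1 and lack Lyz2, whereas the other 3 cells hold Lyz1 and Lyz2 with at most 7 UMIs of Scgb1a1.

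Most UMIs of Sftpb and Cxcl15 in both lungs, and of Sftpa1 in the early lung, lay in cells with high Scgb1a1, while most Sftpc UMIs lay in surfactant-high cells. The latter are defined by member UMIs, of which Sftpc made 71 of 88 in the early and 526 of 609 in the late lung. The place of Sftpc in them thus depends on that definition. Cells with at least 3 Scgb1a1 UMIs and 3 times the free RNA share of it were counted as Scgb1a1-high, which made 9 early cells and, beside the pair above, 13 late cells. Scgb1a1 made up 66.5% and 68.0% of all their UMIs. The 9 early cells held 42 of 55 Sftpa1 UMIs, 20 of 27 Sftpb UMIs, 17 of 21 Cxcl15 UMIs and 6 of 6 Sftpd UMIs, but 1 of 90 Sftpc UMIs. The 13 late cells held 44 of 65 Sftpb UMIs and 34 of 44 Cxcl15 UMIs, 20 of 73 Sftpa1 UMIs and 20 of 583 Sftpc UMIs. The 4 late surfactant-high cells held 50 of the 73 Sftpa1 UMIs (68.5%). All 9 early and 12 of the 13 late cells had a UMI of Sftpa1, Sftpb or Cxcl15, and 8 and 7 of these had none of Sftpc. In the Scgb1a1-high cells of the early lung the level of Sftpa1 was 1270 CPM (915 to 1716) and that of Sftpc 30.2 CPM (0.765 to 168). In those of the late lung Sftpb stood at 988 CPM (718 to 1327), Cxcl15 at 764 CPM (529 to 1067.0), and Sftpa1 and Sftpc both at 449 CPM (274 to 694).

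Against all other cells of the same library, the log2 ratio of the level in the 9 early Scgb1a1-high cells was 4.02 (3.13 to 5.08) for Sftpa1, 3.82 (2.58 to 5.37) for Sftpb and 4.33 (2.84 to 6.48) for Cxcl15. For Sftpc it was -3.53 (-9.43 to -1.59), from 1 and 89 UMIs. In the late lung, where the 15 Scgb1a1-high cells include the pair above, it was 2.16 (1.40 to 2.86) for Sftpa1, 4.74 (3.90 to 5.75) for Sftpb, 5.48 (4.32 to 7.11) for Cxcl15 and 2.25 (1.998 to 2.49) for Sftpc. Sftpc was thus lower in the early and higher in the late Scgb1a1-high cells than in the other cells, with 225 and 358 UMIs in the late lung. The ratios were also taken with the surfactant-high cells set apart. In the early lung that removed 1 cell with 88 member UMIs from the other cells and 0 cells from the Scgb1a1-high side, and in the late lung 2 cells from each side. These cells were chosen by their member counts, so the second ratios are a description that depends on that choice. They were 5.31 for Sftpa1 and 5.40 for Sftpb in the early lung, and -1.26 (-7.19 to 0.85) for Sftpc, from 1 and 18 UMIs, so that its direction was not resolved. Late values were 5.57 for Sftpa1, 6.04 for Sftpb and 2.15 (1.27 to 2.96) for Sftpc, and Cxcl15 was at least 92.0-fold higher, since the remaining cells held 0 UMIs. Over all genes tested the median of the second ratio was -1.84 in the early and -2.13 in the late lung, where Scgb1a1 itself took up most of the total.

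**Figure D3:**
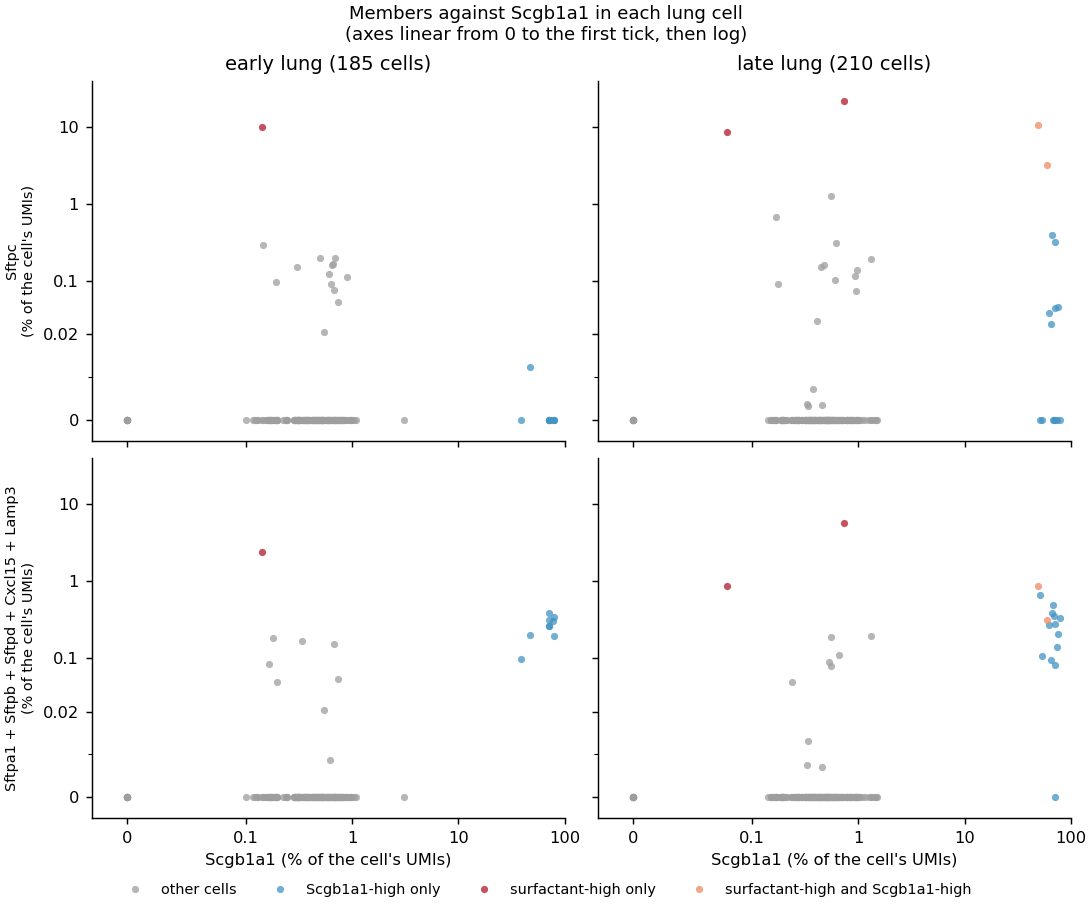
Share of Sftpc (top) and of the other 5 members together (bottom) against the share of Scgb1a1 in each early and late lung cell, in percent of the cell's UMIs, on axes that are linear from 0 to the first tick and log beyond it. In the early lung the surfactant-high cell lies apart from the 9 Scgb1a1-high cells, while in the late lung 2 of 4 surfactant-high cells lie among them. A UMI of Sftpa1, Sftpb or Cxcl15 was found in all 9 early and 12 of the 13 late cells that were Scgb1a1-high only.

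**Figure D4:**
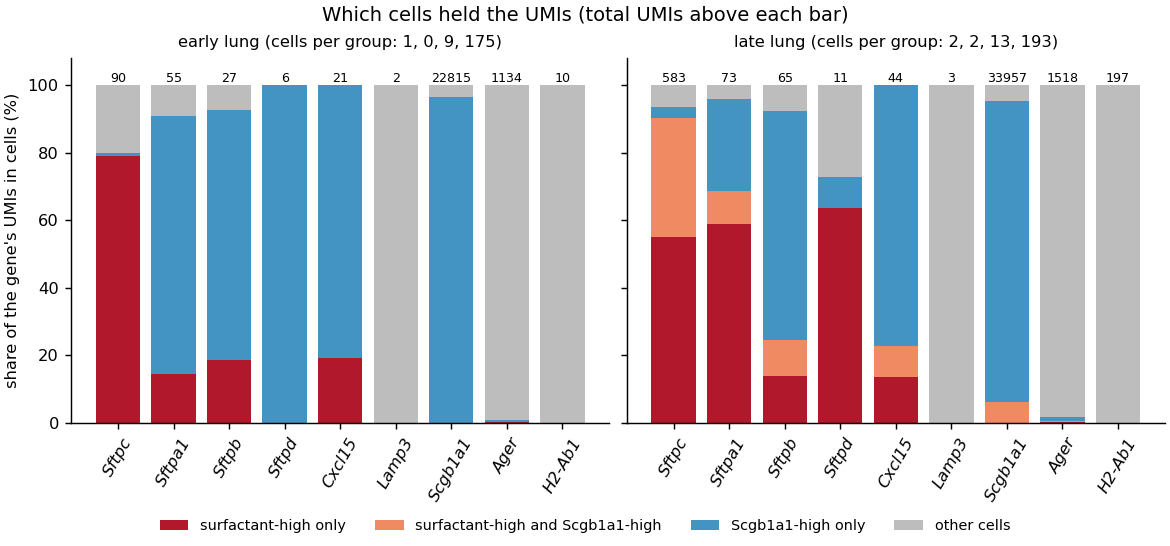
Percentage of each gene's UMIs in lung cells that lay in cells surfactant-high only (red), surfactant-high and Scgb1a1-high (orange), Scgb1a1-high only (blue) or in other cells (grey), with total UMIs above the bars. Sftpc lies mostly in surfactant-high cells (78.9% and 90.2%), Sftpb and Cxcl15 mostly in cells that are Scgb1a1-high only, and Lamp3, Ager and H2-Ab1 wholly or almost wholly outside both. Surfactant-high cells were chosen by member counts, most of them Sftpc, so the Sftpc shares depend on that choice.

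The remaining cells held surfactant transcripts below the level of the free RNA. Sftpc stood there at 106 CPM (62.8 to 167) in the early and 102 CPM (72.0 to 141) in the late lung, 9.42% and 8.47% of its free RNA level. Scgb1a1, which cells other than club cells should lack, stood at 10.4% and 5.78% of its free RNA level in the same cells. The proportions among these genes could therefore be set beside those of the free RNA. Cells high in the members or in Scgb1a1 had been set apart by these same counts. The expected and the found UMIs of the remaining cells both depend on that choice. Whether these UMIs came from free RNA was not tested. In the early lung there were 2.22 Sftpc UMIs per 100 of Scgb1a1 (1.31 to 3.53) in the remaining cells and 2.45 (2.16 to 2.77) in free RNA. At the free RNA proportions, the Scgb1a1 in the remaining cells would bring 27.3 UMIs of the 6 genes together, and 27 were found. In the late lung there were 2.35 Sftpc UMIs per 100 of Scgb1a1 (1.65 to 3.25) against 1.60 (1.44 to 1.77), and 51 UMIs of the 6 genes were found where 36.6 would be brought. Of these 51, 17 lay in a single cell, and 34 in the other cells. Cxcl15 had 0 UMIs in the remaining cells of both lungs, where 0.606 and 2.55 would be brought, so a lower level was not detectable.

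Counting cells with any UMI gave a weaker separation. After thinning each cell to 500 UMIs, Sftpc was detected in 3.24% (1.199% to 6.93%) of cells from the early lung and 7.14% (4.05% to 11.5%) from the late lung. Without thinning the shares were 8.11% and 12.4%. In the cells led by endothelial markers, which should lack the gene, they were 0 of 39 early and 1 of 32 late cells after thinning. The 0 of 39 allows a share of up to 7.69% (3 cells). Without thinning the same cells gave 2.56% and 18.8%, at median depths of 900 and 941.5 UMIs. Of the 6 late cells behind the 18.8%, 5 lay among the 13 with at least 1000 UMIs, whose median depth was 8543 UMIs. The unthinned late share is therefore not a background at ordinary depth. After thinning, the intervals of the cells led by endothelial markers (0% to 9.03% early, 0.0791% to 16.2% late) overlapped those of all cells. The share of cells with any Sftpc UMI was thus not resolved from this background, and only the cells with many Sftpc UMIs stood out.

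No surfactant-high cell was Ager-high or H2-Ab1-high. The 5 cells had 2, 0, 1, 3 and 2 Ager UMIs, and none reached 3 times the free RNA share, which 33 other early and 49 other late cells did. The Ager-high cells held 5 of 201 member UMIs in the early lung and 25 of 779 in the late lung, and 3 of 33 and 7 of 49 of them had any. Of the 25, 17 lay in the cell just below the threshold for surfactant-high, which had 89 Ager and 16 Sftpc UMIs among 1255. It was the only lung cell with at least 5 UMIs of both Sftpc and Ager. The log2 ratio of the 6 genes in Ager-high over other cells was -2.77 (-4.54 to -1.66) in the early and -1.87 (-2.54 to -1.33) in the late lung. Here the other cells include the surfactant-high and Scgb1a1-high cells.

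H2-Ab1 had 0 UMIs in all 5 surfactant-high cells. The free RNA would bring 0.0422 UMIs to the early cell and 1.37 to the 4 late cells, so low levels were not detectable at this depth. Cd74, the invariant chain that accompanies MHC class II, had 1, 2 and 3 UMIs in the 3 cells with little Scgb1a1 and 0 in the pair with much. H2-Ab1-high cells numbered 0 in the early and 8 in the late lung. They held 135 of 197 H2-Ab1 UMIs and 6 of 779 member UMIs, and had 0 UMIs of Ptprc (CD45). Endothelial markers led in 7 of the 8. The eighth, a cell of 6123 UMIs, was led by the other type 2 list through 84 UMIs of Lyz2, which macrophages also express, and had 0 member UMIs. The median depth of the 8 was 10715 UMIs, with 4 of them over 10000. Of the 2 H2-Ab1-high cells with a member UMI, neither was surfactant-high.

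Across the cells of each lung library, the members differed in which of them varied together. The Pearson correlation of log-scaled values was 0.86 in both lungs for Sftpb and Cxcl15, over 185 and 210 cells. Only 7 and 12 of these cells had a UMI of both genes and most had neither, so the value rests on few cells. For Sftpa1 and Sftpc the correlation was 0.33 in the early and 0.56 in the late lung, with 4 and 6 cells holding both. For Sftpc and Scgb1a1 it was 0.00069 and 0.27, and for Cxcl15 and Scgb1a1 0.47 and 0.61. The genes most like the summed members, ranked among 900 by the lower of both correlations, were Hp (0.55 and 0.59), Scgb1a1 (0.44 and 0.53), Cbr2 (0.43 and 0.61), Cyp2f2 (0.50 and 0.41) and Scgb3a2 (0.38 and 0.39). Cbr2, Cyp2f2 and Scgb3a2 are known club cell genes. Next in rank came Wfdc2, Lyz2, Dcxr, Npc2 and Mgst1. Of these 10 genes, Lyz2 alone had no UMI in the early Scgb1a1-high cells, with 12 UMIs in the surfactant-high cell. The cells share a library and free RNA and differ in depth, so these are descriptions without a test.

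Between the stages, Sftpc was the member with a call. Its level in cells was 442 CPM in the early and 1415 CPM in the late lung, a log2 ratio of late over early of 1.67 (1.36 to 2.02). Of the 4 members with enough counts it was the 1 called higher, and none was called lower, where 8.7% and 3.45% of 4552 genes were called. Sftpa1 stood at -0.61 (-1.13 to -0.08), Sftpb at 0.24 (-0.42 to 0.96) and Cxcl15 at 0.03 (-0.73 to 0.87), all within 2-fold. Sftpd (-0.19) and Lamp3 (-0.53) had too few counts. The sum of the 6 genes stood at 0.94 (0.71 to 1.17).

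The stage difference of Sftpc rests on 5 cells. Without the surfactant-high cells it was 0.56 (-0.19 to 1.42), and the sum of the 6 genes was -0.41 (-0.76 to -0.06). Without the top cell of each library Sftpc stood at 3.24 (2.61 to 4.02), because the early lung then lost its only surfactant-high cell. Without the cells over 10000 UMIs it stood at 2.36, and without the Scgb1a1-high cells, which include the pair with Sftpc, at 0.91 (0.58 to 1.27), under 2-fold. Sftpa1 was -2.02 (-2.82 to -1.28) without the surfactant-high cells, 20 of its late and 42 of its early UMIs then lying in Scgb1a1-high cells. The surfactant-high cells were chosen by their member counts and held 50 of 73 late but 8 of 55 early Sftpa1 UMIs. The ratios without them are thus a description that depends on that choice. The intervals treat every UMI as a separate draw and are too narrow where so few cells hold a gene. The share of surfactant-high cells, 1 of 185 and 4 of 210, has broadly overlapping intervals. In free RNA, Sftpc did not differ by 2-fold between the stages (0.10, -0.13 to 0.33), while Cxcl15 was called higher in the late lung (1.77, 0.72 to 3.15), where 6.88% of 3997 genes were called higher and 4.28% lower.

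**Figure D5:**
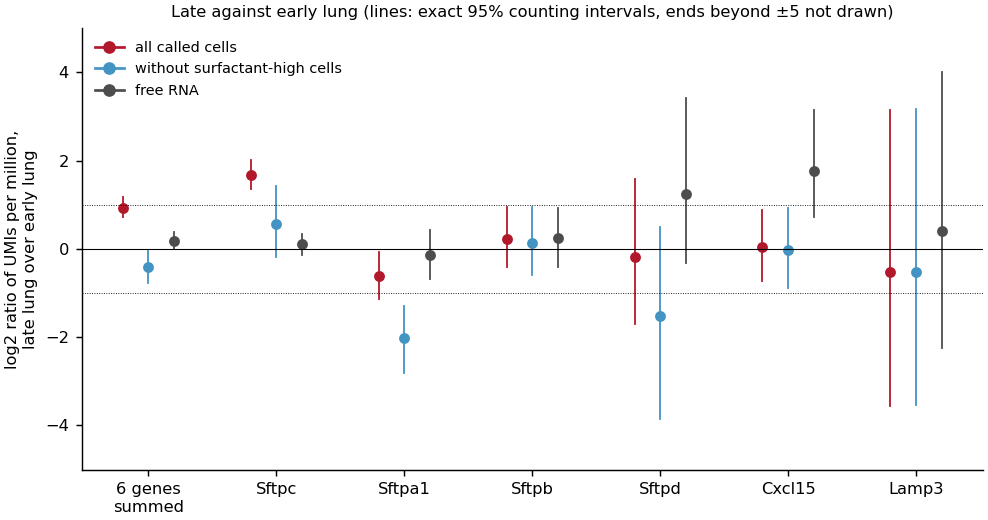
Log2 ratio of late over early lung for the 6 genes summed and each alone, in all called cells (red), without the surfactant-high cells (blue) and in free RNA (grey), with exact 95% counting intervals and dotted lines at 2-fold. Sftpc stands at 1.67 in all cells, 0.56 without the surfactant-high cells and 0.10 in free RNA, and Sftpa1 at -0.61, -2.02 and -0.13. The surfactant-high cells were chosen by their counts of these genes, so the blue values depend on that choice.

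Other genes of the type 2 list showed few counts. Of its 26 genes, 5 had enough counts for late over early cells, 2 were called higher and none lower, where 8.7% of 4552 genes were called higher and 3.45% lower, with a median of 0.31 against 0.05 over all genes tested. For Lyz2, a gene of this list, a single late cell of 6123 UMIs held 84 UMIs and had 0 member UMIs. The calls of the list without that cell were not tested, so they are not read as a rise in type 2 cells. The 8 airway club genes had 6 with enough counts, 0 called higher and 1 lower, with a median of -0.53. The 10 alveolar type 1 genes were all measured, with none called and a median of -0.56. Of the 7 MHC class II genes, 5 had enough counts and all 5 were called higher, H2-Ab1 by 3.22 (2.37 to 4.37), none of it from surfactant-high cells.

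The mammary libraries served as background for the lung signal. Sftpa1 had 0 UMIs in cells of the lesion and 1 in cells of the tumor, Sftpb had 0 in both, and Sftpc had 1 and 0. Early lung cells exceeded early lesion cells at least 353-fold for Sftpa1 and at least 174-fold for Sftpb, with bounds set by 3 counts in the lesion. For Sftpc the log2 ratio was 10.18 (8.25 to 16.08), for Cxcl15 4.41 (3.45 to 5.39) and for Sftpd 1.70 (0.07 to 2.86). All 6 members had enough counts, 5 were called higher, and 22.1% of 8776 genes were. Late lung cells exceeded primary tumor cells at least 861-fold for Sftpc, at least 96.0-fold for Sftpb, at least 65.0-fold for Cxcl15, and by a log2 ratio of 7.76 (5.81 to 13.66) for Sftpa1. There 4 of the 5 members with enough counts were called higher, against 20.6% of 8740 genes.

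Lamp3 was the exception, with no call in either comparison. Its log2 ratio of lung over primary site was -0.44 (-3.83 to 1.16) at the early and -0.40 (-2.98 to 1.16) at the late stage. It had 65 UMIs in 62 lesion cells and 20 UMIs in 18 tumor cells, at most 2 in a cell, and 0 in each of the 5 surfactant-high lung cells. Sftpd was the collectin found in the lesion, with 38 UMIs in 30 of 1318 cells and at most 3 in a cell. The lesion cells with Lamp3 or Sftpd were deeper than most, with medians of 4518 and 4315.5 UMIs against 2360 for all cells. Their median milk gene shares were 15.3% and 18.5%, against 14.1%.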

How the data were processed

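The files deposited by the authors hold whole-number UMI counts per gene and barcode, without normalization, for 4 libraries made with the 10x Chromium 3′ version 2 kit, 1 per group, listing all 737280 barcodes. Per the submitters' processing notes, reads were placed on mm10. No aligner, counter or annotation release is named, as these are not given in the sources used here. Python 3.11.15, numpy 2.4.6, scipy 1.17.1 and pandas 2.3.3 were used. Counts were summed over cells and scaled to CPM. Log2 ratios had 0.5 counts added to each sum. Their intervals are exact conditional Poisson intervals at 95%, and those of shares are Clopper-Pearson. A fold against 0 is a lower bound from 3 counts in that library's cells. With 1 library per group no test was made, and UMIs cover counting error only. No doublet caller was run. The summary steps were tested on simulated data. Named genes are the 6 members, Scgb1a1, Ager, H2-Ab1, genes of the marker lists, and the 10 genes whose correlation with the summed members was highest by the lower of both lungs, among genes with at least 30 UMIs and 5 cells in each. Mitochondrial, ribosomal protein, Gm and Rik entries were left out there. The marker lists cover other alveolar type 2, airway club, alveolar type 1, MHC class II, ciliated, endothelial, fibroblast, pericyte and smooth muscle, macrophage, B cell, and mammary luminal and milk genes. A cell was led by the list with the largest excess, of at least 3 UMIs, over the free RNA at its depth. Members and lists were chosen with earlier results of these data known. Depth ranged from 743765 to 6366768 UMIs per library. Alternatives covered the limits for cells and free RNA, the added count, the gene minimum, the thresholds for surfactant-high and Scgb1a1-high cells, the thinning depth, and leaving out cells.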

Additional observations from a re-analysis of the deposited data

Results flagged for a closer look

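Sftpc in cells against free RNA lay on opposite sides of 0 in the lungs of the 2 stages, with a log2 ratio of -1.34 (-1.71 to -0.997) in the early and 0.23 (0.04 to 0.42) in the late lung. The difference between the ratios was not tested. Without the surfactant-high cells both were negative, -3.55 (-4.34 to -2.91) and -3.09 (-3.53 to -2.70). Those cells were chosen by their member counts, so the values without them depend on that choice.

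Signal was also found in barcodes of 51 UMIs or more that did not reach the 500 UMIs of a cell, which were used neither as cells nor as free RNA. The surfactant-high thresholds were met by 1 such barcode in the early lung and 7 in the late lung. The early barcode had 9 Sftpc UMIs of 71, and 64.8% of its UMIs were mitochondrial. In the late lung, a barcode of 152 UMIs had 30 Sftpc and 5 Sftpa1 UMIs, and a barcode of 171 UMIs had 20 Sftpc, 13 Sftpb, 6 Sftpa1 and 1 Lamp3 UMIs. Both had 3 UMIs of Scgb1a1 and no mitochondrial UMI. The other 5 had 5 to 7 member UMIs, all of Sftpc.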

How the results depend on the processing

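No paired analysis was possible because each group had 1 library. The log2 ratio of late over early lung cells for the 6 genes summed was 0.94 as reported, 1.59 without the cells over 10000 UMIs and -0.41 without the surfactant-high cells. Over all genes, 396 were called higher and 157 lower in late cells. With a gene minimum of 50 counts these were 146 and 44, since fewer genes were tested, and with no minimum 333 were called lower. For the 6 genes in cells over free RNA, the early lung gave -0.64 as reported and -1.47 without its surfactant-high cell. The late lung gave 0.11, and -0.20 with a minimum of 1000 UMIs, 0.84 without the cells over 10000 UMIs and -2.06 without the surfactant-high cells. Surfactant-high cells numbered 1 in the early lung and 0 with a minimum of 1000 UMIs. Among barcodes from 51 UMIs to below 500 they numbered 7 in the late lung, against 4 among cells, and 0 in the early lesion, against 1. Late cells both surfactant-high and Scgb1a1-high numbered 2, and 0 when Scgb1a1-high meant 10 times the free RNA share, which no cell at 75.5% or less of Scgb1a1 can meet there, and 1 when surfactant-high meant 20 times. Late surfactant-high cells that were Ager-high numbered 0, and 1 when surfactant-high meant 5 times. None of these alternatives turned a called direction, but not all gave the same result. A change without reversal was counted in 16 of 60 for early against late lung and 15 of 84 for lung cells against free RNA. It was counted in 9 of 24 for shares of cells with a UMI and 3 of 18 for co-expression. For surfactant-high cells it was 3 of 28, and for lung against primary site 1 of 28. The comparisons without surfactant-high or Scgb1a1-high cells and the use of barcodes below 500 UMIs were chosen after seeing the data. Surfactant-high cells are defined by the counts compared, so the values without them depend on that definition. With a minimum of 1000 UMIs, which the early surfactant-high cell does not reach, Sftpc in late over early cells was 3.35 (2.58 to 4.37), and without the Scgb1a1-high cells 0.91 (0.58 to 1.27), under 2-fold. Depth limits the statements on Lamp3 and Sftpd in the lung and on H2-Ab1 in surfactant-high cells.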

Other observations

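Cxcl15 was found in 8 of 1318 early lesion cells, 19 UMIs in all, of which 8 lay in a cell of 2991 UMIs. That cell met the surfactant-high thresholds of its own library through Cxcl15 alone, with 0 UMIs of Sftpc, Sftpa1, Sftpb and Scgb1a1. The median share of milk genes in the 8 cells was 1.28%, against 14.2% in the 1310 cells without Cxcl15. Hormone-sensing luminal genes (Esr1, Pgr, Prlr, Cited1, Areg and Ly6a, a list chosen after their values were seen) stood at 2122 CPM in them and at 38.4 CPM in the others. At least 1 UMI of that list was found in 5 of the 8 cells and in 112 of 1310 (8.55%). The median depths were 2963 and 2352.5 UMIs. Lesion cells with Sftpd or Lamp3 held the list at 45.9 and 40.2 CPM. Since the list was chosen after its values were seen, its levels are a description that depends on that choice. They do not name the kind of the 8 cells.

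The proportions among the surfactant transcripts were set side by side for several sources, and some of their intervals overlapped. The cell groups were defined by member or Scgb1a1 counts, so differences from them depend on that definition. There were 19.8 Sftpa1 UMIs per 100 of Sftpc (14.4 to 26.7) in early and 16.9 (12.8 to 22.01) in late free RNA. The surfactant-high cells had 11.3 (4.68 to 23.4) and 9.51 (6.96 to 12.7). The late value includes the 2 cells that were also Scgb1a1-high, and without them it was 13.4 (9.51 to 18.5). The late cells that were Scgb1a1-high only had 100 (51.1 to 196), and all 15 late Scgb1a1-high cells had 12.0 (7.74 to 17.9). The former leave out the 2 cells with much Sftpc, which were chosen by their member counts, so their proportions depend on that choice. For Cxcl15 per 100 of Sftpc, early free RNA had 3.04 (1.30 to 6.08) and the early surfactant-high cell 5.63 (1.49 to 15.1). Late free RNA had 10.1 (7.09 to 14.1), late surfactant-high cells 1.90 (0.906 to 3.52) and late cells that were Scgb1a1-high only 170 (95.1 to 312). All 15 late Scgb1a1-high cells had 16.9 (11.6 to 23.9) of Cxcl15.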
